A study of Homo sapiens with 24 samples.

Results

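Transcript levels of 3 glycophorin genes, GYPB (ENSG00000250361), GYPC (ENSG00000136732) and GYPE (ENSG00000197465), and of the platelet glycoprotein gene GP1BB (ENSG00000203618) were examined in K562 cells over 24 time points. The genes were a named set, chosen by their FPKM values over these time points with those values known, and were found by matching symbols to the Ensembl identifiers of the expression table. All 4 of 4 were present among the 12285 genes of the table, and all 4 passed the minimum mean level of 1 FPKM that 12253 genes passed. K562 is an established human leukaemia line that grows in suspension and has erythroid features with some megakaryocytic ones. The cells were grown in RPMI with bovine calf serum, synchronised by centrifugal elutriation, which separates cells by size, and sampled every 2 h from 0 h to 46 h, with no other treatment or genotype in the labels. There was 1 RNA-seq library per time point and no replicate, so all values are those of single libraries.

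Glycophorins are the sialic acid-rich proteins of the red cell surface. GYPB carries the S and s blood group antigens, and GYPE is a gene of the same family on the same chromosome. GYPC is unrelated in sequence to these. It carries the Gerbich antigens and is anchored to the membrane skeleton through the products of EPB41 and MPP1. GP1BB encodes the beta chain of glycoprotein Ib, which together with GP1BA, GP9 and GP5 forms the platelet receptor for von Willebrand factor. Its gene lies just downstream of the septin gene SEPTIN5, and transcripts that read through both genes are annotated.

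How far these genes can be told apart by their reads follows from their sequences. GYPB and GYPE differed at 4 of their first 120 coding bases (GENCODE 29, transcripts GYPB-202 and GYPE-201). Over all annotated transcripts, 1.05% of the distinct 50-base stretches of GYPB occurred in GYPE and 1.15% of those of GYPE in GYPB. GYPC shared none of its 3847 stretches with GYPB or GYPE. GP1BB stood at the other end, as 63.6% of its 1504 stretches occurred in transcripts of SEPTIN5 (SEPT5 in GENCODE 29) and all 1504 in those of the read-through gene SEPT5-GP1BB, which was not analysed here. How the counting divided shared reads is not given in the sources used here, so the levels of GYPB, GYPE and above all of GP1BB are uncertain to that extent.

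All 4 genes had a GATA core, GATAA or GATAG on either strand, within 100 bases before a RefSeq start (GRCh38.p14). The 30 bases around the core nearest to that start are shown for each gene because the glycophorins and GP1BB are expressed in related lineages, and capitals mark the core as it reads on the gene's strand.
GYPB: gtgggcctggaaGATAAcagctagtaggct
GYPE: gtgggcctggaaGATAAcagctagcaggct
GYPC: aatgaagtctgcCTATCtccgggccagagc
GP1BB: ggcggggcggccTTATCgctcggctctccc
The GYPB window lies at chr4:144019366-144019395 (minus strand) and belongs to 1 of its 2 tabulated starts, the GYPE window at chr4:143905586-143905615 (minus strand), the GYPC window at chr2:126656082-126656111 (plus strand) and the GP1BB window at chr22:19723493-19723522 (plus strand). The first base of the core stood at -38 in GYPB, -44 in GYPE, -64 in GYPC and -34 in GP1BB, counted from the start site. Of all 35116 tabulated promoters, 13.3% held GATAA or GATAG on either strand in the 100 bases before the start and 31.9% in the 250 bases before it. The whole tabulated promoters of GYPB and GYPE, which reach from 250 bases before the start to 50 after it, were near copies of each other, with the same base at 287 of 294 aligned positions (97.6%), so they are not separate occurrences. Annotated exons overlapped the stretch checked at the windows of GYPE, GYPC and GP1BB, and no overlap was listed for GYPB. For GP1BB these were exons of GP1BB itself, of SEPT5 and of SEPT5-GP1BB. The windows of GYPE, GYPC and GP1BB can therefore not be taken as promoter sequence alone. Whether an exon reached the core itself was not examined. A match of these letters is a description of the sequence and not a binding site.

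GYPC had the highest level of the set and GYPE and GP1BB the lowest. FPKM is scaled by transcript length, so levels of different genes can be set side by side on it. The median over 24 time points was 157 FPKM for GYPC, 115 for GYPB, 65.8 for GP1BB and 57.4 for GYPE. GYPC was above GYPB at 21 of 24 time points and below it at 16, 18 and 22 h. GYPB was above both GYPE and GP1BB at all 24. The neighbours GP1BB and GYPE did not keep an order, with GP1BB the higher at 15 time points and GYPE at 9. By mean level GYPC ranked 547, GYPB 746, GYPE 1782 and GP1BB 1960 among all genes of the table.

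**Figure D1:**
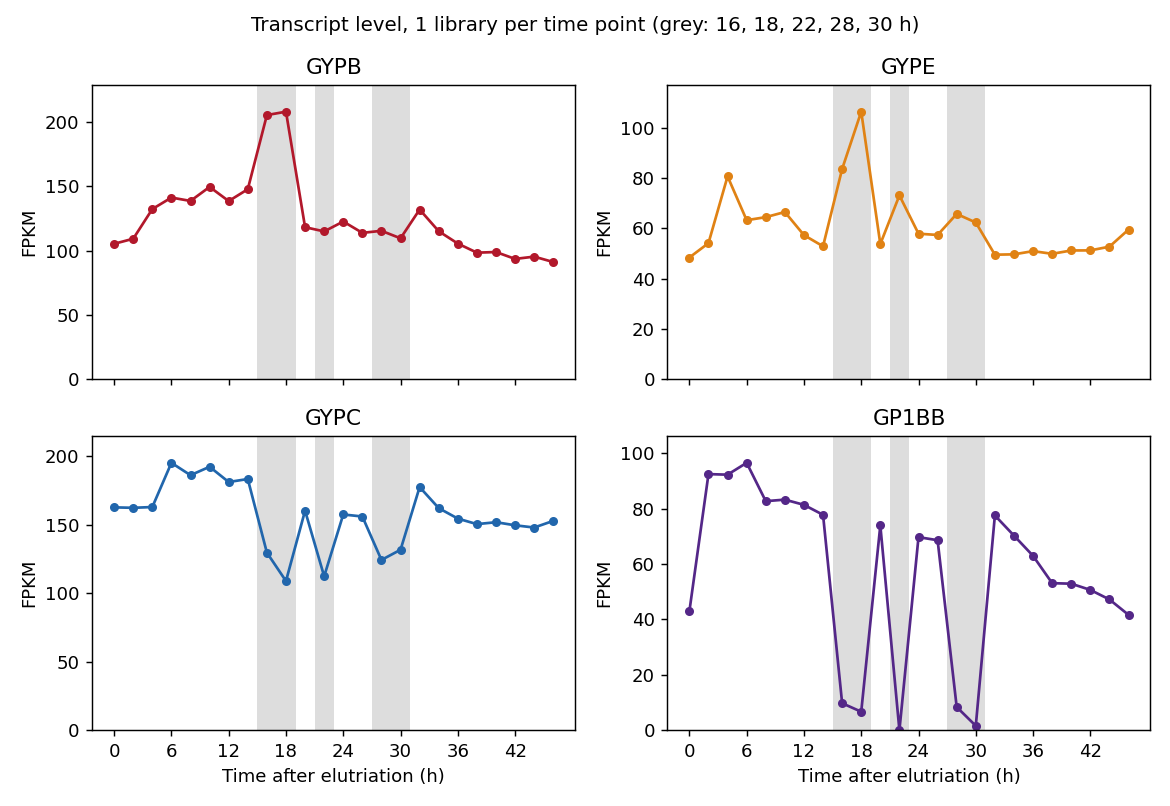
FPKM (y axis, from 0) of GYPB, GYPE, GYPC and GP1BB against time after elutriation in hours (x axis), 1 library per point, with 16, 18, 22, 28 and 30 h shaded. GYPB and GYPE peak at 18 h, GYPC is lowest there, and GP1BB is between 0.00107 and 9.75 FPKM at the 5 shaded time points against 41.6 FPKM or more at the other 19.

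The chromosome 4 glycophorins GYPB and GYPE shared a high at 16 h and 18 h. The study names these 2 time points as anomalous across the whole transcriptome and proposes a technical origin, which was not tested here. By eye it also marks 32 h as a milder case, which its detection function did not call. GYPB was at 105 and 109 FPKM at 0 and 2 h and between 132 and 149 FPKM from 4 to 14 h. It stood at 205 and 208 FPKM at 16 and 18 h and at 118 FPKM at 20 h. From 38 to 46 h it lay between 91.0 and 98.8 FPKM. The course of GYPB was therefore a rise by 4 h, 2 high time points at 16 and 18 h, a lower level from 20 h, and its lowest values at the end. GYPB stood at 132 FPKM at 32 h, between 109 FPKM at 30 h and 115 FPKM at 34 h.

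GYPE was at 48.4 FPKM at 0 h, its lowest value, and at 80.7 FPKM at 4 h. It fell between 52.9 and 66.5 FPKM from 6 to 14 h, was at 83.7 and 107 FPKM at 16 and 18 h, and returned to 53.8 FPKM at 20 h. A smaller high followed at 22 h with 73.2 FPKM, and the values from 32 to 44 h stayed between 49.5 and 52.8 FPKM before 59.6 FPKM at 46 h. The ratio of the FPKM of GYPB to that of GYPE had a median of 2.04 over the 24 time points, the lowest 1.53 at 46 h and the highest 2.79 at 14 h. At 16 and 18 h the ratio was 2.45 and 1.95, inside the range of the others.

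GYPC, the Gerbich glycophorin, ran the other way at 16 h and 18 h. Its level was 163 FPKM at 0 h and 195 FPKM at 6 h, its highest, and it lay between 181 and 192 FPKM from 8 to 14 h. At 16 and 18 h it was at 130 and 109 FPKM, and at 20 h at 160 FPKM. Further low values stood at 22 h with 112 FPKM and at 28 and 30 h with 124 and 132 FPKM. GYPC was thus low at the same 5 time points as GP1BB. From 38 to 46 h it varied by little, from 148 to 153 FPKM.

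GP1BB, the glycoprotein Ib beta chain, was far lower at 5 time points than at the other 19, and near absent at 22 h. At 0 h it was at 42.9 FPKM, from 2 to 6 h between 92.2 and 96.5 FPKM, and from 8 to 14 h between 77.8 and 83.2 FPKM. It was at 9.75 and 6.68 FPKM at 16 and 18 h, at 0.00107 FPKM at 22 h, and at 8.38 and 1.60 FPKM at 28 and 30 h. Between and after these it returned to 73.9 FPKM at 20 h, 69.7 and 68.6 FPKM at 24 and 26 h, and 77.5 FPKM at 32 h. From there it was lower at each later time point, to 41.6 FPKM at 46 h. The 5 time points were set apart by these values, so the lack of overlap with the 19 others follows from that choice. Low and high values alternated within 2 h. Because the depth of the libraries is unknown, no limit can be put on the level at 22 h.

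The coefficient of variation over the 24 time points was 54.8% for GP1BB, 24.4% for GYPB, 22.4% for GYPE and 14.8% for GYPC. Over the 19 time points other than 16, 18, 22, 28 and 30 h, which were set apart after the values of GP1BB were seen, it was 24.9%, 16.3%, 14.1% and 9.23% in the same order of genes. GP1BB varied most and GYPC least in both. The 19 include 32 h, which the study marks by eye as mildly anomalous. The medians of the levels over the 19 time points were 162 FPKM for GYPC, 115 for GYPB, 70.2 for GP1BB and 53.8 for GYPE, so the order of the genes was that of all 24.

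SEPTIN5, a septin gene with which GP1BB shares sequence, had no matching low values. SEPTIN5 was at 197 and 201 FPKM at 16 and 18 h, 151 FPKM at 22 h, and 160 and 149 FPKM at 28 and 30 h, and ranged from 108 to 216 FPKM over all time points. Over the 19 other time points the ratio of the FPKM of GP1BB to that of SEPTIN5 lay between 0.373 and 0.525, with a median of 0.473. The ratio was 0.0494 and 0.0332 at 16 and 18 h, 7.03e-06 at 22 h, and 0.0524 and 0.0107 at 28 and 30 h. The 2 genes thus kept a ratio within a narrow range at 19 time points, and at the 5 others the level of GP1BB alone was low. On log2(FPKM + 1), Pearson's r between them was 0.95 over the 19 time points and -0.06 over all 24. The points of such a correlation share their libraries and their scaling, and the 19 were set apart by the values of GP1BB.

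**Figure D2:**
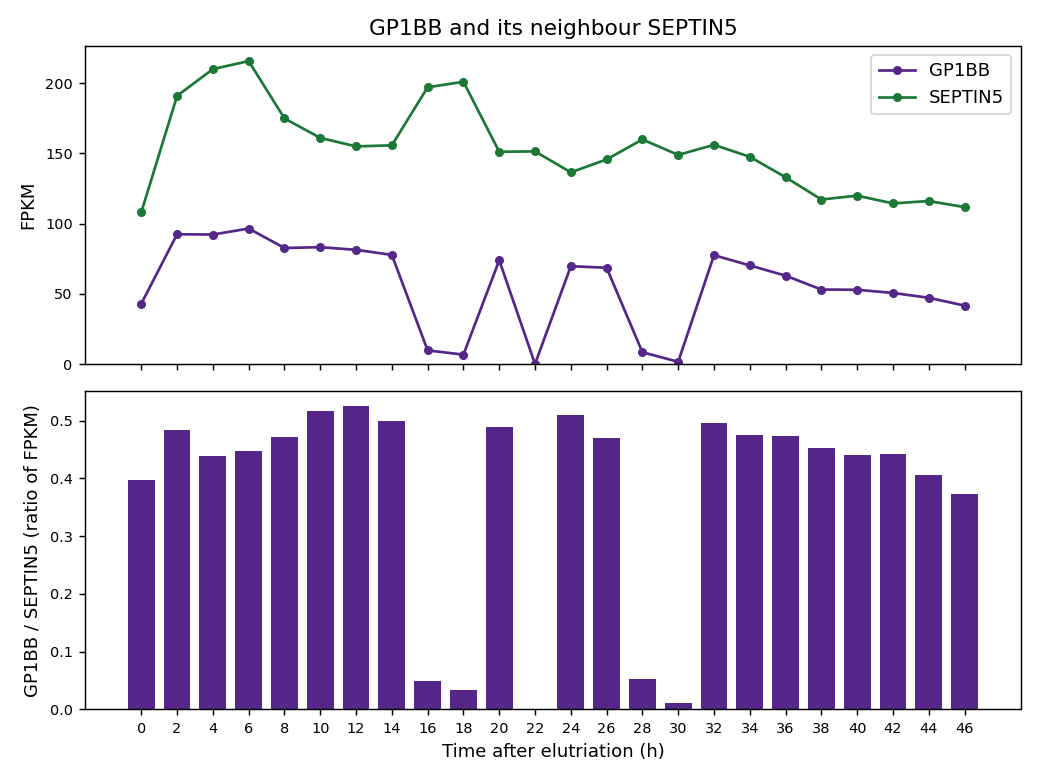
FPKM of GP1BB and SEPTIN5 against time in hours (top), and the ratio of their FPKM at each time point (bottom, bars from 0). SEPTIN5 stays at or above 108 FPKM throughout, and the ratio is 0.0524 or less at 16, 18, 22, 28 and 30 h and 0.373 or more at the other 19 time points.

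The size of these departures was measured on log2(FPKM + 1), as how far the values at 16 h and 18 h lay from a line drawn between those at 14 h and 20 h. The libraries of 16 h and 18 h stood apart from the rest: of 12253 genes, 8.95% were 2-fold or more above the line and 7.11% were 2-fold or more below it, and the median of all genes was 0.14 above it. Of the set, GP1BB was 2-fold or more below the line, and no gene was 2-fold or more above it. GYPE and GYPB lay above the line, as did 58.1% of all genes, and GYPC and GP1BB below it, as did 41.9%. The mean deviation was 0.81 for GYPE, 0.64 for GYPB, -0.53 for GYPC and -3.08 for GP1BB. As ratios to the line, GYPE stood at 1.57 and 1.99 at 16 and 18 h, GYPB at 1.49 and 1.63, GYPC at 0.738 and 0.648, and GP1BB at 0.127 and 0.0889. The signs of the 4 deviations were the same after median centring and after upper-quartile scaling, under which they were 0.58, 0.41, -0.76 and -3.29.

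With 1 library per time point, the same measure at 16 other pairs of consecutive time points served as the reference. GYPB deviated by -0.12 to 0.20 at these pairs, GYPE by -0.26 to 0.27 and GYPC by -0.38 to 0.40. At 16 h and 18 h GYPB and GYPE lay above these ranges, as did 43.6% of all genes against their own, and GYPC lay below its range, as did 28.0%, so such departures were common to these libraries. GP1BB ranged from -3.90 to 4.52, a range that includes pairs at or beside its low values at 22, 28 and 30 h, and its deviation at 16 h and 18 h lay inside it. The pair of 28 h and 30 h gave the lowest reference value of GYPB, of GYPC and of GP1BB.

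At 22 h, set against the line between 20 h and 24 h, the deviation was -6.18 for GP1BB, -0.50 for GYPC, -0.07 for GYPB and 0.38 for GYPE. At 28 h and 30 h, against the line between 26 h and 32 h, it was -3.90, -0.38, -0.12 and 0.26. The flank at 32 h is the time point that the study marks by eye, so this line rests partly on it. Of all genes, 0.604% were 2-fold or more below the line at 22 h and 0.310% at 28 h and 30 h. GP1BB was 1 of 7 genes (0.0571%) that were 2-fold or more below at all 3 sets of time points. These time points were chosen for GP1BB, so the counts describe it and give no test.

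**Figure D3:**
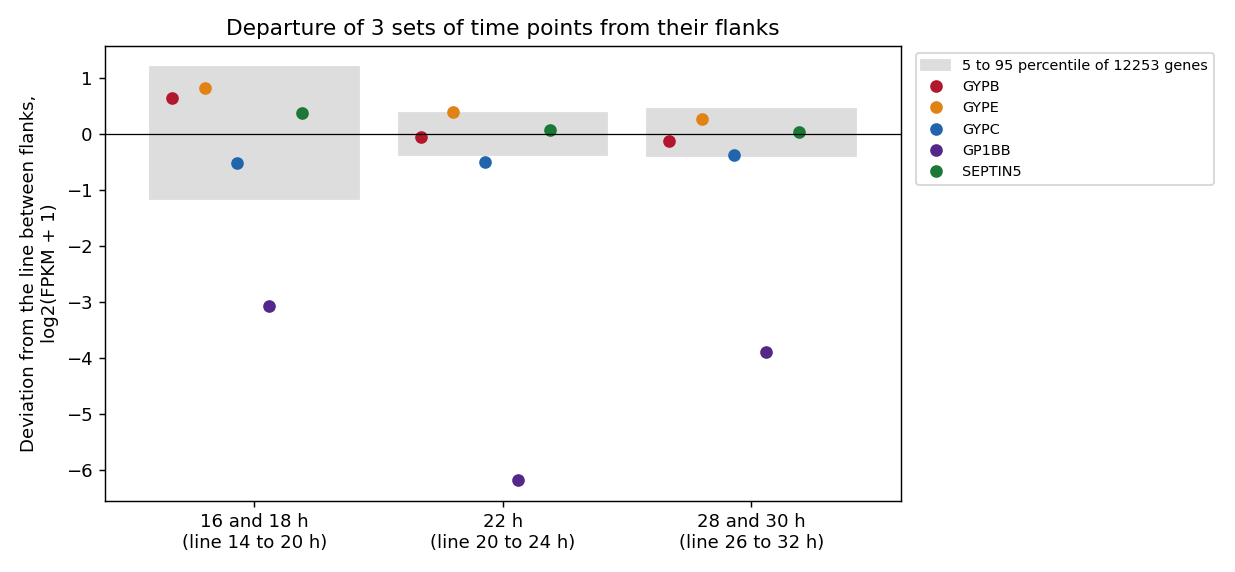
Deviation of log2(FPKM + 1) from the line between the flanking time points (y axis) at 16 and 18 h, 22 h, and 28 and 30 h (x axis) for the 4 genes and SEPTIN5, 1 point per gene. Grey boxes span the 5 to 95 percentile of 12253 genes, and GP1BB lies at -3.08, -6.18 and -3.90, below all 3 boxes.

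Base composition was set beside these low values. The annotated GP1BB transcript is 71.1% G and C over 1553 bases, which is higher than in 99.8% of the genes. The GC content was 57.9% for GYPC, 42.2% for GYPB and 42.3% for GYPE, so the 2 genes of higher GC content were those with low values at 16, 18, 22, 28 and 30 h. Among 23 other genes with at least the GC content of GP1BB, 73.9% were 2-fold or more below the line at 16 h and 18 h, 17.4% at 22 h and 8.70% at 28 h and 30 h. Over all 12148 genes with a known GC content the shares were 6.95%, 0.576% and 0.305%. The median deviations of the 23 genes were -1.20, -0.77 and -0.32, smaller in size than those of GP1BB. SEPTIN5, at 62.4% and thus above GYPC, had no low value at these time points. The part of base composition in the levels of GP1BB and GYPC was not tested.

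Samples 24 h apart were compared next, which asks whether levels returned to the same height on the second day. GYPB was lower on the second day in 10 of 12 pairs, by a mean of -0.38 ± 0.40 (SD, n = 12 pairs) on log2(FPKM + 1), a ratio of 0.770. The difference of GYPE was -0.26 ± 0.35, lower in 10 pairs, and that of GYPC was -0.07 ± 0.31, lower in 9. GP1BB was lower in 8 pairs, with a mean of 0.03 ± 2.73, a spread that includes the pairs with its lowest values. Every mean was smaller in size than the SD of its pairs, which is the spread of single pairs and not the error of the mean. Of all genes, 4.76% were lower in at least 11 of 12 pairs, which none of the 4 was. An exact two-sided sign-flip test with Benjamini-Hochberg adjustment over 12253 genes called 6.80% lower and 10.0% higher on the second day. No p is given for the 4 genes, which were chosen with these values known.

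Without the pairs that hold 16, 18, 22, 28 or 30 h, 7 pairs remained. GYPC was lower in all 7 of them, by -0.15 ± 0.10, as were 5.63% of all genes. GP1BB was lower in 6 of 7, by -0.23 ± 0.44, and 16.9% of genes were lower in at least 6. GP1BB was higher on the second day in the pair of 0 h and 24 h, with 42.9 and 69.7 FPKM. GYPB was lower in 5 pairs, by -0.21 ± 0.28, and GYPE in 5, by -0.10 ± 0.24. Against all 12 pairs, the mean difference of GYPB was thus smaller in size over the 7, and the SD of GYPC was 0.10 in place of 0.31.

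**Figure D4:**
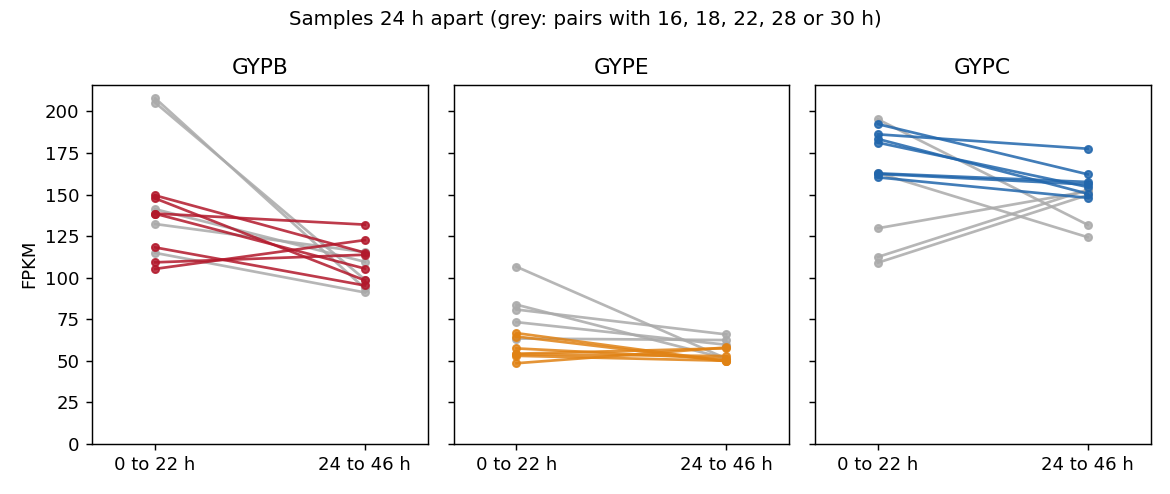
FPKM (y axis, from 0) of GYPB, GYPE and GYPC at 0 to 22 h and 24 h later, with a line joining each of 12 pairs and grey lines for the 5 pairs that hold 16, 18, 22, 28 or 30 h. All 7 coloured lines of GYPC go down, and 5 of 7 do so for GYPB and GYPE.

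SEPTIN5 was lower on the second day in 11 of 12 pairs, by -0.35 ± 0.30, and passed the exact sign-flip test (adjusted p = 0.027), but not without the pairs of 16 h and 18 h (adjusted p = 0.063). Order in time was scored with JTK, a rank statistic that takes the best Kendall agreement with a 24 h cosine among 12 possible phases. The ranks were 2457 for GYPC, 3502 for GP1BB, 6483 for GYPB and 9809 for GYPE, all after the 1457 genes (11.9%) with a permutation adjusted p of at most 0.05.

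How the 4 genes ran together depended on the time points included. Between GYPB and GYPC, r on log2(FPKM + 1) was -0.06 over 24 time points, 0.60 without 16 h and 18 h, and 0.91 over the 19. Between GYPC and GP1BB it was 0.85, 0.84 and 0.70. GYPB and GYPE gave 0.72, 0.41 and 0.50, and GYPB and GP1BB -0.13, 0.24 and 0.83. These are descriptions over points that share their libraries.

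The genes most like each of the 4 were taken as those with the highest r over 22 time points, leaving out 16 h and 18 h, among 7085 genes whose mean reached 10 FPKM. For GYPB they were CD320 (the transcobalamin receptor, r = 0.94), IPO4 (an importin, 0.94) and ZW10 (a kinetochore protein, 0.94). For GYPC they were CYC1 (cytochrome c1, 0.93), PITX1 (a homeobox factor, 0.92) and ARF5 (a small GTPase, 0.92). For GYPE the likeness was weaker, with NBN (a DNA repair protein, 0.81), APEX2 (an endonuclease, 0.81) and PCBP1-AS1 (an antisense RNA, 0.80), whose level is uncertain where strand was not used in counting.

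The genes most like GP1BB were CST3 (cystatin C, 0.94), CHCHD10 (a mitochondrial protein, 0.92) and COMTD1 (0.92). CHCHD10 was at 62.3 FPKM at 22 h and at 71.0 and 74.2 FPKM at 28 and 30 h, against a mean of 135 FPKM. Over the 19 time points r with GP1BB was 0.60 for CST3, -0.04 for CHCHD10 and 0.69 for COMTD1. The likeness of CHCHD10 to GP1BB thus lay in the low time points.

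The other genes of the red cell surface were set beside the glycophorins with the same tests. Of 28 listed transporters, channels and blood group proteins, 21 were tested, and the exact sign-flip test called 3 lower and 2 higher on the second day, against 6.80% and 10.0% of all genes. The median of the 21 was -0.05, against -0.01 over all genes. Lower were SLC4A1 (the anion exchanger band 3, -0.70 ± 0.31), ERMAP (the Scianna antigen, -0.36 ± 0.26) and RHAG (the Rh-associated glycoprotein, -0.15 ± 0.12). Higher were AQP1 (a water channel, 0.50 ± 0.53) and PIEZO1 (a mechanosensitive channel, 0.30 ± 0.27). Adjusted p-values of these ran from 0.015 to 0.046, and ERMAP, SLC4A1 and AQP1 were named after their values were seen. RHAG lost its call in the exact test after median centring (adjusted p = 0.051) and after upper-quartile scaling (adjusted p = 0.27), and AQP1 without the pairs of 16 h and 18 h (adjusted p = 0.11). Leaving out 1 pair also ended the call of RHAG for each of 5 pairs (those of 4, 10, 12, 14 and 20 h, adjusted p from 0.051 to 0.056 in the exact test) and that of AQP1 for each of 10 (all but those of 0 and 2 h, adjusted p from 0.051 to 0.085).

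Of the 4 surface genes of highest level, RHAG was at a mean of 363 FPKM, BSG (basigin) at 238, PIEZO1 at 129 and SLC2A1 (the glucose transporter GLUT1) at 99.0. GYPC and GYPB lay between BSG and SLC2A1 on this scale. BSG (-0.11 ± 0.22) and SLC2A1 (-0.05 ± 0.46) did not pass the test between days (adjusted p = 0.26 and 0.85, exact sign-flip). Without the pairs of 16 h and 18 h both were called lower, BSG by -0.19 and SLC2A1 by -0.22 (adjusted p = 0.029 and 0.036, exact sign-flip). At 16 h and 18 h, 1 of the 21 was 2-fold or more above the line and 1 below it, CD55 (decay-accelerating factor, 1.62) and SMIM1 (the Vel antigen, -2.15), both named after their values were seen. Of the 21, 10 had a JTK adjusted p of at most 0.05 by permutation, against 11.9% of all genes.

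Of the 17 genes of the membrane skeleton to which GYPC is anchored, 1 was called higher and 1 lower on the second day, with a median of -0.07, against 10.0% and 6.80% of all genes. STOM (stomatin) was higher by 0.48 ± 0.12 and EPB42 (which binds the anion exchanger) lower by -0.64 ± 0.34, each in 12 of 12 pairs (adjusted p = 0.012, exact sign-flip), and both were named after their values were seen. MPP1, a partner of GYPC, was at a mean of 187 FPKM and differed by 0.03 ± 0.19. ACTB (-0.05 ± 0.35) and TPM3 (-0.18 ± 0.62) had adjusted p-values of 0.75 and 0.58 by the exact sign-flip test. TPM3 was the 1 gene of the 17 that was 2-fold or more above the line at 16 h and 18 h (1.38), and none was below.

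For the platelet genes, 10 of 22 listed were tested. GP1BA, GP9 and GP5, the partners of GP1BB in its receptor, were not analysed here. The exact sign-flip test called 4 of the 10 higher on the second day and none lower, with a median of 0.19, against 10.0% and 6.80% of all genes. Higher were ITGA2B (integrin alpha IIb, 1.36 ± 0.69), GP6 (the collagen receptor glycoprotein VI, 0.75 ± 0.47), FERMT3 (kindlin 3, 0.58 ± 0.48) and CD63 (a granule membrane protein, 0.18 ± 0.19). The first 3 were higher in 12 of 12 pairs (adjusted p = 0.012, exact test) and CD63 in 11 (adjusted p = 0.044). CD63 lost its call in the exact test after median centring (adjusted p = 0.059) and without the pairs of 16 h and 18 h (adjusted p = 0.10). Leaving out any single pair other than those of 0 and 6 h, 10 pairs in all, also ended the call of CD63 (adjusted p from 0.059 to 0.081, exact test). ITGA2B and GP6 were named after their values were seen.

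FERMT3 was at a mean of 71.4 FPKM, near the 56.0 FPKM of GP1BB, and the other called genes lay further off. ITGA2B and GP6 were at means of 3.89 and 4.05 FPKM, with their highest values, 9.71 and 8.26 FPKM, at 46 h, where GP1BB had its lowest of the 19 time points. FLNA (filamin A, 177 FPKM) differed by 0.20 ± 0.28 and YWHAZ (a 14-3-3 protein, 167 FPKM) by -0.11 ± 0.34, and neither passed the exact sign-flip test (adjusted p = 0.074 and 0.56), though FLNA did without the pair of 0 h and 24 h (adjusted p = 0.041). At 16 h and 18 h FERMT3 was 2-fold or more below the line (-1.20) and TUBB1 (beta-1 tubulin) above it (1.09). None of the 10 was 2-fold or more below at 22 h or at 28 h and 30 h, against 0.604% and 0.310% of all genes. These time points were chosen for the low values of GP1BB, so its difference from the 10 is no test.

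The glycophorins carry O-linked glycans ending in sialic acid, and 17 of 21 listed enzymes and transporters of this pathway were tested. Of these the exact sign-flip test called 3 higher and 2 lower on the second day, with a median of 0.03. The shares over all genes were 10.0% and 6.80%. Higher were the sialyltransferases ST6GALNAC4 (0.56 ± 0.41) and ST3GAL1 (0.39 ± 0.23) and GALNT6 (0.52 ± 0.36), which starts O-glycans. Lower were C1GALT1C1 (the chaperone Cosmc, -0.20 ± 0.18) and SLC35A1 (the CMP-sialic acid transporter, -0.18 ± 0.19), and both lost their calls in the exact test after upper-quartile scaling (adjusted p = 0.12 and 0.21). C1GALT1C1 also lost its call without the pairs of 16 h and 18 h (adjusted p = 0.057, exact test). The same held when 1 of 7 pairs was left out (those of 2, 4, 6, 10, 14, 18 and 22 h, adjusted p from 0.051 to 0.060, exact test). These 5 were named after their values were seen.

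The enzymes of highest level did not pass the exact sign-flip test. NANS (sialic acid synthase, 84.0 FPKM) differed by -0.08 ± 0.26, CMAS (which activates sialic acid, 80.4 FPKM) by 0.01 ± 0.42, GALNT2 (46.7 FPKM) by 0.10 ± 0.21 and ST6GALNAC1 (39.5 FPKM) by 0.19 ± 0.39, with adjusted p-values of 0.53, 0.98, 0.27 and 0.28. None of the 17 was 2-fold or more off the line at 16 h and 18 h.

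The erythroid label of the line was checked against 14 markers, all of them in the table, whose summed level ran from 3562 to 9136 FPKM. Of these 14, 7 were 2-fold or more below the line at 16 h and 18 h and none was 2-fold or more above it. Over all genes the shares were 7.11% and 8.95%, and 58.1% lay above the line by sign alone. By sign alone, 3 of the 14 lay above the line, as GYPB and GYPE did, and HBA1 (alpha globin, 0.89) was further above it than either, a gene named after its value was seen whose reads can be shared with its near copy HBA2. Between days 1 of 14 was called, ALAS2 (the erythroid haem synthesis enzyme), which was lower by -0.60 ± 0.19 (adjusted p = 0.012, exact sign-flip). Over all genes 6.80% were called lower and 10.0% higher. Of 17 markers of lymphoid, monocytic and fibroblast cells, 3 were tested, CD3D, LYZ and COL1A2, and all 3 were higher on the second day, by 0.63 ± 0.38, 0.83 ± 0.23 and 0.35 ± 0.31 (adjusted p = 0.012, 0.012 and 0.029, exact sign-flip). Their levels ran from 4.20 to 12.9 FPKM for CD3D, 10.7 to 28.2 FPKM for LYZ and 1.70 to 3.94 FPKM for COL1A2. LYZ had a mean of 19.6 FPKM and ranked 4978 by mean level among all genes of the table. The part of these levels in the differences between days was not tested. In bulk RNA, fewer cells with a transcript and less of it per cell cannot be told apart.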

How the data were processed

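RNA-seq of 24 K562 samples, 1 per time point, was analysed. The authors aligned reads with STAR and quantified them as FPKM with Cufflinks (Cufflinks2 in the study's methods) and Cuffnorm on GRCh37, per the submitters' processing notes, with further version numbers and the annotation not given in the sources used here. The authors also deposited a cleaned table of scores, whose columns all hold the same sorted values, and which served as an alternative. Low FPKM values lay at whole reads in at most 38.5% of cases within a tolerance of 0.1, against up to 36.2% with scrambled values, so reads were not recovered and the depth is unknown. Summed FPKM per library ranged from 456791 to 591309.

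FPKM was used as deposited, on log2(FPKM + 1) with a mean of at least 1 FPKM, which understates changes of low genes. Samples were assigned to time points from their labels. Days were compared over 12 pairs of samples 24 h apart by an exact two-sided sign-flip permutation test over 4096 sign patterns, with the smallest possible p of 0.000488, and order in time by the JTK statistic with 100000 permutations, each Benjamini-Hochberg adjusted over 12253 genes at 0.05. Pairs come from 1 time course and are not biological replicates. In simulated data of 2000 genes, 200 of 200 changed genes were recovered by each of the 2 tests and by the deviation measure, with 10 false calls in the sign-flip test, 7 in JTK and 0 in the deviation. The simulated noise was independent between time points. The counts therefore do not show how the tests behave where neighbouring time points share drift or whole libraries stand apart, as in these data. Python 3.11.15, NumPy 2.4.6 and pandas 2.3.3 were used.

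Sequences, transcript lengths and GC content came from GENCODE 29 (GRCh38) and RefSeq (GRCh38.p14), and names were found for 11434 of 12285 identifiers. Because the build differs from that of the authors, no coordinates of the authors' build are given, and those of the promoter windows are of GRCh38.p14. Named genes were the set, read-sharing SEPTIN5, the 4 genes of highest mean from each list other than markers, and the 3 genes most like each member, though some of these items are not reported here. The set and the lists were chosen with earlier results of these data known. Alternatives were other filters, a 1.5-fold threshold, a pseudocount of 0.1, scaling by the upper quartile or the median, other periods, the cleaned table, and leaving out time points or pairs.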

Additional observations from a re-analysis of the deposited data

How the results depend on the processing

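With a mean of at least 10 FPKM, 7169 genes were tested, of which 491 were higher and 522 lower on the second day and 549 were 2-fold below the line at 16 h and 18 h, against 1225, 833 and 871 of 12253. The cleaned table gave 1539 lower. Median centring gave 1128 higher and 1170 lower, and upper-quartile scaling 1530 and 681. Leaving out each pair in turn gave 822 to 1336 higher and 469 to 909 lower. At 16 h and 18 h a pseudocount of 0.1 gave 1308 genes below, upper-quartile scaling 579 above against 1097, and a 1.5-fold threshold 2933 above and 2060 below. Periods of 20 h and 28 h gave 335 and 410 genes with order in time, against 1457. The causes were not tested. The difference of GP1BB between days ran from -0.46 to 0.51 as single pairs were left out, so its sign rests on single pairs. With 7 pairs no count of calls is given, since the smallest p of that test is too large for the adjustment. With all 24 time points, r of GYPB with CD320 was 0.59, of GYPC with CYC1 0.52, of GYPE with NBN 0.91 and of GP1BB with CST3 0.81. Of the other like genes, APEX2 (0.10), PCBP1-AS1 (0.45) and IPO4 (0.57) were below 0.60 and the other 5 ran from 0.82 to 0.94. No paired analysis was possible by replicate number, because each time point has 1 sample, and the pairs of the day comparison are samples 24 h apart. Depth is unknown, 1 line was followed through 1 time course, and no value has a replicate.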
